A study of Rattus norvegicus with 6 samples.

Results

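Acsm5, Cdh17, Gfra1, Osm, Kcns2, Vsig2, A1bg and Akr1b7 are 8 genes whose liver signal differed widely between single rats. They were selected on their measured levels and ranges in these same 6 rats, so their levels, ranges and group differences are given as descriptions, and nothing is read from a test of them. All non-control probes assigned to them by the array's transcript identifier were taken, which gave 14 probes among 61657, for 8 of 15284 named genes. Liver RNA came from male Sprague-Dawley (Crl:CD(SD)) rats, an outbred stock in which animals differ genetically, and each array held 1 rat. The animals were 9 weeks old, ate a basal diet and received corn oil, the vehicle, at 5 mL/kg/day in both groups. The labels give the corn oil as 3 days in 1 place and as 9 weeks in another. Before killing, 3 rats were anaesthetised with a CO2/O2 gas mixture and 3 with isoflurane, an inhaled anaesthetic, and no rat without anaesthesia was measured.

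The genes belong to different families. Acsm5 encodes a mitochondrial medium-chain acyl-CoA synthetase, an enzyme that activates fatty acids, and Akr1b7 an aldose reductase-like enzyme that reduces aldehydes. A1bg encodes a secreted plasma glycoprotein of the immunoglobulin superfamily whose rat liver expression is known to be female-predominant and controlled by growth hormone, a hormone whose signal reaches the genome through the transcription factor STAT5. Cdh17 is liver-intestine cadherin, a cell adhesion protein, and Vsig2 is a cell surface protein with immunoglobulin domains found in epithelia. Gfra1 is the membrane-anchored co-receptor that binds glial cell line-derived neurotrophic factor (GDNF) and signals with Ret. Osm is oncostatin M, a cytokine of the interleukin-6 family made by blood cells and macrophages, and Kcns2 is a silent subunit that modulates voltage-gated potassium channels of the Kv2 type.

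RefSeq promoters, running from 250 bases before to 50 bases after the start site, were found for 4 of the 8 genes (Acsm5, Gfra1, A1bg and Akr1b7). Those of A1bg and Akr1b7 are shown because these genes shared their highest and lowest rats, and that of Acsm5 because the gene beside it varied with it. Capitals mark matches, on either strand, to TTCNNNGAA, the element bound by STAT factors, to CACGTG, an E-box, and to GGGCGG, a GC box. The coordinates are of the build GRCr8, and each sequence reads in the direction of its gene. A1bg lies on the minus strand at chr7:94387447-94387746, Akr1b7 on the plus strand at chr4:64043720-64044019 and Acsm5 on the plus strand at chr1:183302259-183302558.
A1bg: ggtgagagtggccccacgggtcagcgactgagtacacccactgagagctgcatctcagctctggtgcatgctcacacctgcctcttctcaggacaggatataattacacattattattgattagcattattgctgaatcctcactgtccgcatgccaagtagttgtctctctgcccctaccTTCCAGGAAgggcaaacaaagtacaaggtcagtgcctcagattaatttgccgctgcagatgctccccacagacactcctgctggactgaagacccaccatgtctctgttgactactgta
Akr1b7: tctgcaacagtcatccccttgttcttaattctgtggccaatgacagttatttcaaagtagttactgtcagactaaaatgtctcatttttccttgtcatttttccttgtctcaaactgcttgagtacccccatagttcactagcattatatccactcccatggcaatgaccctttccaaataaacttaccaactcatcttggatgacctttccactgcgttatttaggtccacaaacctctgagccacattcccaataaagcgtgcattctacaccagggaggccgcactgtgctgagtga
Acsm5: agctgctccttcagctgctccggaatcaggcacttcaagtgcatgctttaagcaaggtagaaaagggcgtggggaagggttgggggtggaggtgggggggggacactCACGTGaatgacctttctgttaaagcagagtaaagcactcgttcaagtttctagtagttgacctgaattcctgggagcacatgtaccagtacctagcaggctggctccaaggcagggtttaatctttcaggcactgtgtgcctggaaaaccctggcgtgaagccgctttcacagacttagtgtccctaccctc
The A1bg promoter held 1 STAT element, 69 bases before the start site, and the Acsm5 promoter 1 E-box, 143 bases before it. The Akr1b7 promoter held none of the 3 motifs, and the Gfra1 promoter held 2 GC boxes. The motifs did not overlap each other. Among 33469 RefSeq promoters of 300 bases, 8.87% held the STAT element, 6.42% the E-box and 33.1% the GC box. A match describes letters, and no binding was measured here.

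Levels are log2 of the processed signal relative to the 75th percentile of the same array, so that 0 is that percentile and 1 unit is a 2-fold step. A probe is called on where the scanner software marked its spot as well above background, and off where it did not. Where a gene had several probes, the one with the highest mean over the 6 arrays stands for it. Between 53.4% and 62.3% of probes were on per array, and no spot was saturated. All 8 hepatocyte markers checked, among them Alb and Hnf4a, were on in all 6 livers. Because RNA came from whole liver, fewer cells of a type and less RNA per cell cannot be told apart.

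By this detection call most of the 8 genes were not on in some rats and off in others. Their leading probes were on in all 6 rats for 6 genes (Acsm5, Cdh17, Gfra1, Osm, Kcns2 and Vsig2), against 65.6% of all named genes. Of these, Osm, Kcns2 and Vsig2 were dim in all rats but 1, between -3.97 and -3.05, near background. A1bg and Akr1b7, 2 of 8, were on in some rats and off in others, as were 12.3% of named genes. A1bg was on in 3 of 3 CO2/O2 rats and 2 of 3 isoflurane rats, and Akr1b7 in 3 of 3 and 1 of 3. What the genes shared was size of variation, taking signals as read. For Osm, Kcns2 and Vsig2 it rested on 1 high reading each, its spot among spots brighter than usual (described further on). Without that reading these genes ranged by 0.59, 0.74 and 0.73. All 8 ranged by at least 4 log2 units over the rats, which 2.72% of the 11906 genes detected somewhere did, and 7 of 8 had a gap of at least 2 log2 units between neighbouring rats, against 3.85% of genes. Gfra1 was the exception, with a widest gap of 1.61. Their ranges ran from 4.67 for Vsig2 to 10.18 for Akr1b7, and the median range of all detected genes was 0.45. These shares follow from how the genes were chosen, and nothing is read from them.

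**Figure D1:**
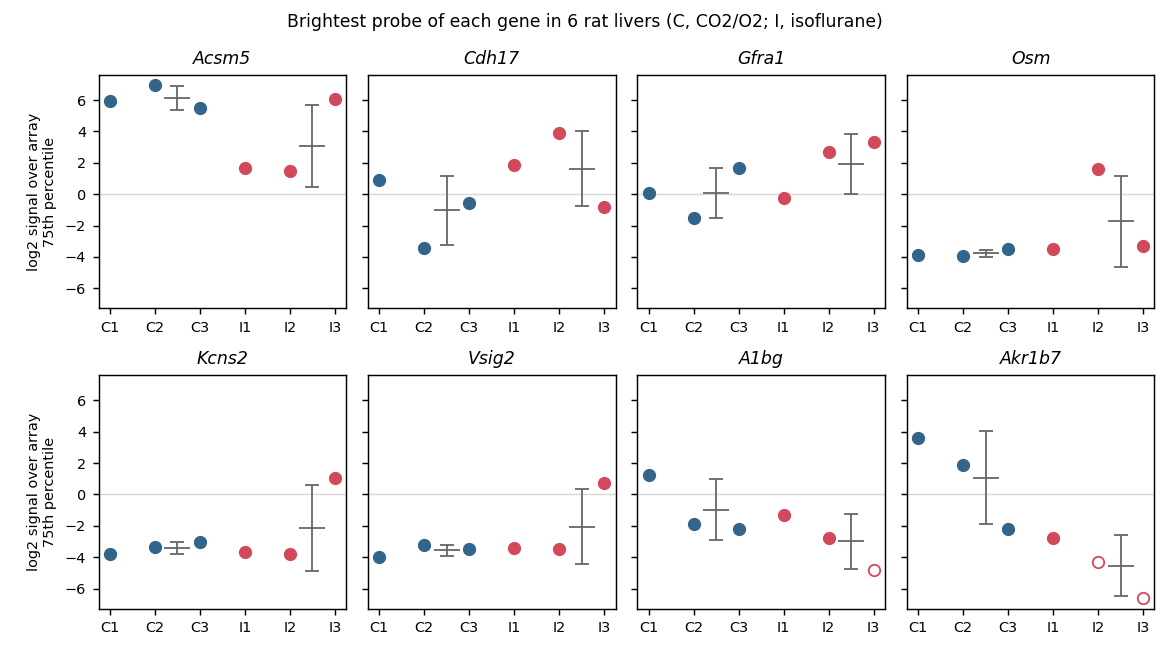
Level of the leading probe of each gene (vertical axis, log2 signal relative to the array's 75th percentile) in each rat (horizontal axis; C1 to C3, CO2/O2; I1 to I3, isoflurane). Filled points are on and open points off, and grey bars show the group mean ± SD (n = 3); Osm, Kcns2 and Vsig2 each have 1 isoflurane rat far above the other 5, while Akr1b7 spans 10.18 log2 units with its 2 lowest rats off.

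Taking signals as read, Akr1b7 had the widest range of the 11906 detected genes, although its lowest readings were off. Its only probe, A_44_P1058932, lay at 3.58, 1.88 and -2.23 in CO2/O2 rats 1 to 3 and at -2.75, -4.29 and -6.60 in isoflurane rats 1 to 3. The first pair of CO2/O2 rats stood 4.11 log2 units above the rest, the other CO2/O2 rat and isoflurane rat 1 lay close together, and the probe was off in isoflurane rats 2 and 3. Set against the dimmest signal that counts as on in isoflurane rat 3, the brightest rat was at least 257-fold higher, or 8.01 log2 units. The groups did not overlap, as for 14.1% of detected genes, and the difference of isoflurane minus CO2/O2 was -5.62 ± 1.71 (SE, n = 3 per group).

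Akr1b7 lies in a cluster of related reductase genes on chromosome 4, and Akr1b8 was the neighbour that varied most. Akr1b8, another aldose reductase-like gene, lay at 1.46, -0.19 and -1.77 after CO2/O2 and at -1.80, -1.89 and -3.68 after isoflurane. It was on in all 6 rats, ranked CO2/O2 rat 1 highest and isoflurane rat 3 lowest as Akr1b7 did, and had a correlation with it of 0.97 over the 6 arrays, given as a description. Akr1b1, aldose reductase itself, lay in the same cluster and ranged by 0.28 log2 units, from -0.66 to -0.38 (r = 0.85 with Akr1b7). Bpgm, on the other side of Akr1b7, ranged by 0.70 log2 units (r = 0.91). Akr1b10 was off in all 6 rats. The probe sequences were not used here, so shared signal between these similar transcripts was not tested. Among the other 12 aldo-keto reductases with a probe, 11 were on in all rats, 0 passed the test of the groups in either direction, and the widest after Akr1b8 was Akr1c2, at 5.17, 4.42 and 2.48 after CO2/O2 and 2.26, 4.53 and 2.10 after isoflurane.

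The genes most like Akr1b7 over the 6 arrays, among 868 that ranged by at least 2 log2 units, were Cd36l1 (r = 0.98), Cd36 (r = 0.98) and Cryga (r = 0.98). Cd36, the fatty acid translocase, lay at 4.57, 4.07 and 2.83 after CO2/O2 and at 2.86, 1.72 and 1.59 after isoflurane, and its 3 probes had like ranges of 2.97, 2.94 and 2.71. Cd36l1 lay between 0.30 and 2.94. Cryga, a lens crystallin, was on in 2 rats only, between -6.43 and -3.95.

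A1bg, the female-predominant plasma protein, lay at 1.25, -1.91 and -2.22 after CO2/O2 and at -1.34, -2.77 and -4.81 after isoflurane, by its only probe, A_44_P360720. CO2/O2 rat 1 stood 2.58 log2 units above the next rat, isoflurane rat 3 was off, and the groups overlapped. The brightest rat was at least 51-fold above the on limit of isoflurane rat 3. The group difference was -2.01 ± 1.25 (SE, n = 3 per group). A1bg and Akr1b7 shared their highest and lowest rat and had a correlation of 0.87 over the 6 arrays, with all points sharing 1 slide.

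Of the other female-pattern genes regulated by growth hormone, 5 had a probe, all were on in all 6 rats, and 0 passed the test in either direction. Prlr, the prolactin receptor, varied most, at 2.52, 1.79 and 0.01 after CO2/O2 and at 0.86, -0.75 and -3.70 after isoflurane. Its extremes were in the same rats as those of A1bg, and its spot on the array of isoflurane rat 3, its lowest, was among spots brighter than usual (the bright patches described further on). Sult2a1, a sulfotransferase of steroids and bile acids, lay at 7.87, 7.65 and 7.02 after CO2/O2 and at 6.95, 6.61 and 6.13 after isoflurane, with no overlap. Cyp2c12, a steroid hydroxylase typical of female rat liver, had another order, at 3.99, 4.58 and 5.53 after CO2/O2 and 6.10, 3.07 and 4.15 after isoflurane. Cyp2c7 and Cyp2a1 ranged by only 0.36 and 0.67 and were highest in CO2/O2 rat 1, as were Prlr and Sult2a1. Isoflurane rat 3 was lowest for Prlr, Sult2a1 and Cyp2c7, and isoflurane rat 2 for Cyp2a1 and Cyp2c12. Except for Cyp2c12, these genes thus shared the highest rat of A1bg, and they shared its lowest rat in part. The median group difference of the 5 was -0.26, against -0.01 over all tested genes.

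In the male-pattern list of growth hormone dependent genes, 11 besides Akr1b7 had a probe and all were on in all 6 rats. Bcl6, a transcriptional repressor more abundant in male liver, varied most, at 0.97, 3.61 and 4.13 after CO2/O2 and at 4.29, 1.42 and 4.92 after isoflurane, and its other probe had a range of 3.71. It was lowest in CO2/O2 rat 1, where A1bg and Akr1b7 were highest. Cyp2c11, the main male-specific P450 of rat liver, was also lowest there, at 7.22 against 8.01 to 8.62 in the other 5 rats. Akr1b7, though placed on this list, thus ran opposite to Bcl6 and Cyp2c11 in that rat. Cyp2a2, Cyp3a2 and Cyp4a3 of the list had their lowest rat elsewhere. None of the male-pattern genes passed the test in either direction, and their median difference was 0.30. The genes most like A1bg were Insl6 (r = 0.97), Mpp4 (r = 0.97) and Srd5a1 (r = 0.95), the last a steroid reductase on in all rats between 3.03 and 5.31, with a second probe that ranged by 2.53. Insl6 was on in 1 rat and Mpp4 in 2, close to background.

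**Figure D2:**
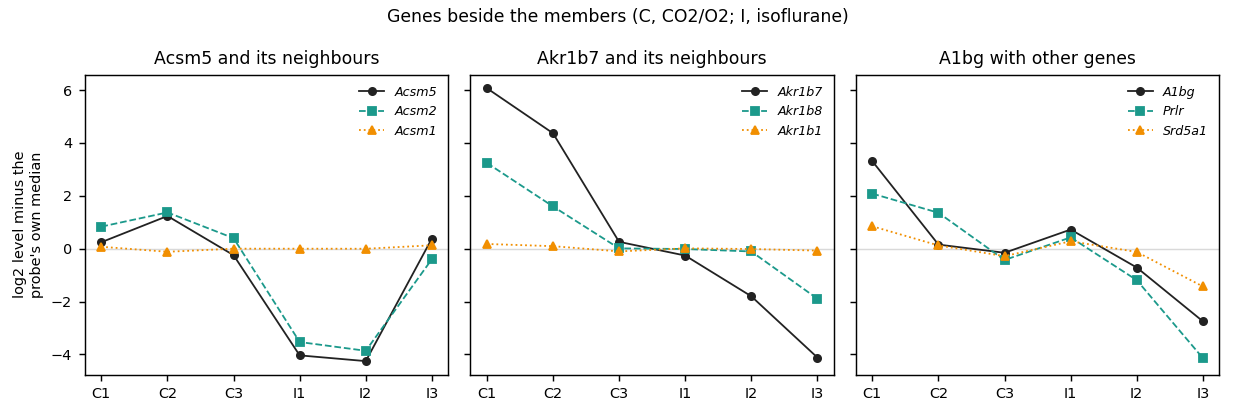
Deviation of each gene's leading probe from its own median over the 6 rats (vertical axis, log2), by rat (horizontal axis; C, CO2/O2; I, isoflurane), with lines joining points of 1 gene only. Acsm2 follows Acsm5 and Akr1b8 follows Akr1b7, while Acsm1 and Akr1b1 range by 0.25 and 0.28; Prlr and Srd5a1 share their highest and lowest rats with A1bg.

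Acsm5 was abundant in 4 rats and far lower in the other 2. Its leading probe, A_64_P151353, lay at 5.95, 6.95 and 5.46 after CO2/O2 and at 1.67, 1.46 and 6.09 after isoflurane. Isoflurane rats 1 and 2 lay 3.79 log2 units, or 13.8-fold, below the next rat, yet all 6 rats were on and isoflurane rat 3 lay among the CO2/O2 rats, so the groups overlapped. A second probe, A_44_P212813, lay at 2.41, 3.52 and 1.82 after CO2/O2 and at 0.07, -0.04 and 2.76 after isoflurane, low in the same 2 rats. The remaining probe, A_44_P992673, carries the same transcript identifier and stayed between 2.41 and 3.46 in all rats. The group differences of the 3 probes, in the order named, were -3.05 ± 1.31, -1.66 ± 0.87 and 0.30 ± 0.24 (SE, n = 3 per group). The probes thus disagreed on whether Acsm5 varied at all, and where in the transcript each one lies is not used here.

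Acsm2, the next gene with a probe beside Acsm5 on chromosome 1 and a member of the same enzyme family, showed the pattern of the leading probe. Its levels were 4.29, 4.83 and 3.86 after CO2/O2 and -0.07, -0.40 and 3.06 after isoflurane (r = 0.98 with Acsm5). Isoflurane rats 1 and 2 were again the low ones. Acsm1, also in this cluster, lay between 5.63 and 5.87 in all rats. Acsm3 had a different order, at 0.52, 0.77 and 2.09 after CO2/O2 and 1.93, 3.22 and 3.11 after isoflurane. Of the 8 other acyl-CoA synthetase genes with a probe, 7 were on in all rats, 1 (Acsm4, with its spot in a bright patch) in 1 rat, and 0 passed the test in either direction. Retsat, retinol saturase, with r = 0.96, and Noct, a rhythmically expressed gene, with r = 0.92, were the next most like. Noct lay at 0.71, 0.85 and 1.35 after CO2/O2 and at -1.34, -2.75 and 1.81 after isoflurane, and its 3 probes ranged by 4.56, 4.58 and 4.28.

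Cdh17 and Gfra1 each had a pair of probes that moved together over all 6 rats. The leading Cdh17 probe, A_43_P13004, lay at 0.91, -3.42 and -0.56 after CO2/O2 and at 1.86, 3.87 and -0.85 after isoflurane. Isoflurane rat 2 was highest and CO2/O2 rat 2 lowest, 157-fold apart, and each group held high and low rats. The other probe, A_44_P132825, lay at -3.30, -6.99 and -5.45 after CO2/O2 and at -2.40, -0.49 and -5.60 after isoflurane, and was on in CO2/O2 rat 1 and isoflurane rats 1 and 2. These are the 3 rats in which the leading probe was brightest, so that an on-off pattern appeared in the dimmer probe where the brighter one gave a graded signal. The correlation of the 2 probes was 0.98, and the group differences were 2.65 ± 1.56 and 2.41 ± 1.53 (SE, n = 3 per group).

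Cdh17 is also a marker of intestinal epithelium, and tissue from there was looked for by its other markers. Vsig2, also on that marker list, was left out as one of the 8 genes. Of 5 others with a probe, 3 were on in some rat, and the defining genes Vil1 and Cdx2 were off in all 6. Their summed level, as a multiple of the 75th percentile, was 2.59 to 3.52 in CO2/O2 rats and 1.84 to 2.54 in isoflurane rats, and the lowest sum was in isoflurane rat 2, where Cdh17 was highest. Most of this sum was Fabp2, a fatty acid binding protein, at log2 levels of 0.55 to 1.68, so the sum mainly follows 1 gene. Whether intestinal tissue was present was not tested. Bile duct markers summed to 2.50 to 2.95 in CO2/O2 rats and 2.57 to 2.77 in isoflurane rats. Of 11 other cadherins with a probe, 4 were on in all rats, 2 in some and 5 in none, with 0 past the test. Cdh8 was on in isoflurane rat 2 only, at -0.59 against at most -6.13 elsewhere, with its spot in a bright patch. The genes most like Cdh17 were Pcdhb21, Cacng1 and Lcn10, with r from 0.83 to 0.86.

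The leading Gfra1 probe, A_43_P11634, lay at 0.07, -1.54 and 1.68 after CO2/O2 and at -0.25, 2.70 and 3.32 after isoflurane, on in all. Its second probe, A_44_P107308, lay at -2.92, -5.66 and -1.38 after CO2/O2 and at -3.28, -0.23 and 0.52 after isoflurane, and was off in CO2/O2 rat 2 only. Both probes put CO2/O2 rat 2 lowest and isoflurane rat 3 highest, with a correlation of 0.99, and the levels spread without a large gap. The group differences were 1.86 ± 1.20 and 2.33 ± 1.42 (SE, n = 3 per group). All CO2/O2 rats lay in slide row 1 with isoflurane rat 1, and with slide row as a block these differences became -0.31 and 0.04.

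Gdnf, the ligand of Gfra1, lay between 3.72 and 3.96 in all rats, and Ret, its signalling partner, was on in CO2/O2 rat 2 only, so its spread could not be measured. Of 9 other genes of this ligand and receptor family, 6 were on in all rats and 2 in none, and 0 passed the test. The gene most like Gfra1 was Pkib, an inhibitor of protein kinase A (r = 0.93), at -1.73, -2.32 and -0.88 after CO2/O2 and -1.19, 0.35 and -0.14 after isoflurane, and its 3 probes ranged by 2.67, 1.21 and 2.45. The spot of its leading probe on the array of isoflurane rat 2, its highest, was in a bright patch, and those of its other probes were in none. Hoxb8 and Erp27 followed with r = 0.88.

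**Figure D3:**
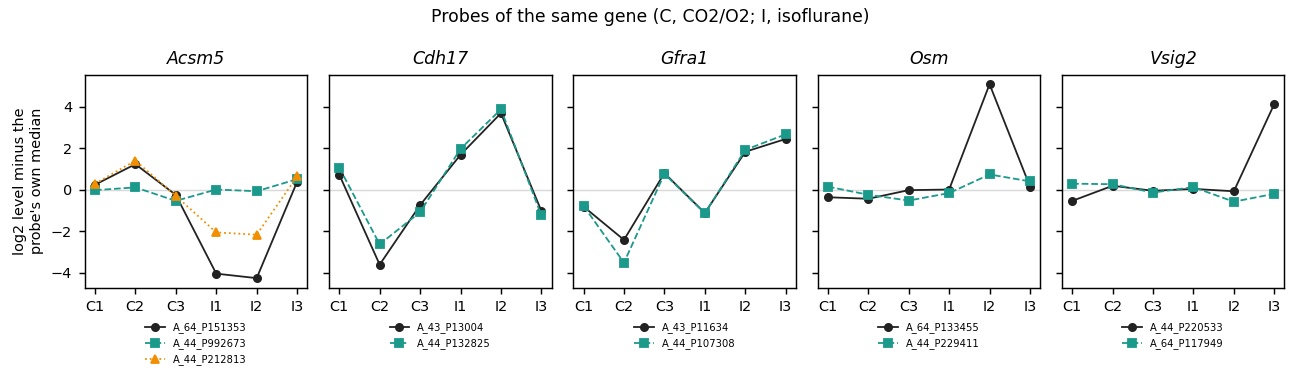
Deviation of each probe from its own median over the 6 rats (vertical axis, log2), by rat (horizontal axis; C, CO2/O2; I, isoflurane), for the 5 genes with more than 1 probe; lines join points of 1 probe only. The probes of Cdh17 and of Gfra1 run together, and 1 of the 3 Acsm5 probes stays flat. The single high points of Osm (5.08) and Vsig2 (4.13) have no counterpart in the other probe, which for Osm was off in all rats.

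Osm, Kcns2 and Vsig2 showed a different kind of pattern, with 5 rats alike and 1 isoflurane rat far above them. Osm, by probe A_64_P133455, lay at -3.84, -3.92 and -3.50 after CO2/O2 and at -3.47, 1.60 and -3.33 after isoflurane. Isoflurane rat 2 stood 4.93 log2 units, or 30.4-fold, above the next rat, and the groups did not overlap, because the other isoflurane rats, at -3.47 and -3.33, were just above the highest CO2/O2 rat. The other Osm probe, A_44_P229411, was off in all 6 rats, between -7.40 and -6.14. Kcns2, by its only probe, A_44_P358548, lay at -3.79, -3.36 and -3.05 after CO2/O2 and at -3.66, -3.77 and 1.05 after isoflurane, so isoflurane rat 3 alone was high. Vsig2, by probe A_44_P220533, lay at -3.97, -3.24 and -3.48 after CO2/O2 and at -3.39, -3.50 and 0.70 after isoflurane, again with isoflurane rat 3 high. The other Vsig2 probe, A_64_P117949, lay between -4.28 and -3.41 in all rats, was at -3.89 in isoflurane rat 3 and was off in isoflurane rat 2.

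The spots around these 3 high readings were bright as well. For each spot, the 12 nearest spots on the slide, which hold probes of other genes, were compared with their own medians over the 6 arrays. Around the Osm spot on the array of isoflurane rat 2, 10 of 12 neighbours were at least 4-fold up, with a median deviation of 3.95 log2 units, while on the other arrays the median lay between -0.23 and 0.08. Around the Kcns2 spot on the array of isoflurane rat 3, 9 of 12 were up, with a median of 5.02, and around the Vsig2 spot there 5 of 12 were up, with a median of 0.75. No member spot was marked as an outlier by the scanner software. A spot with at least 3 such neighbours is called here a spot in a bright patch. For the other 5 genes no spot of any probe lay in one on any array, with at most 1 of 12 neighbours up.

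**Figure D4:**
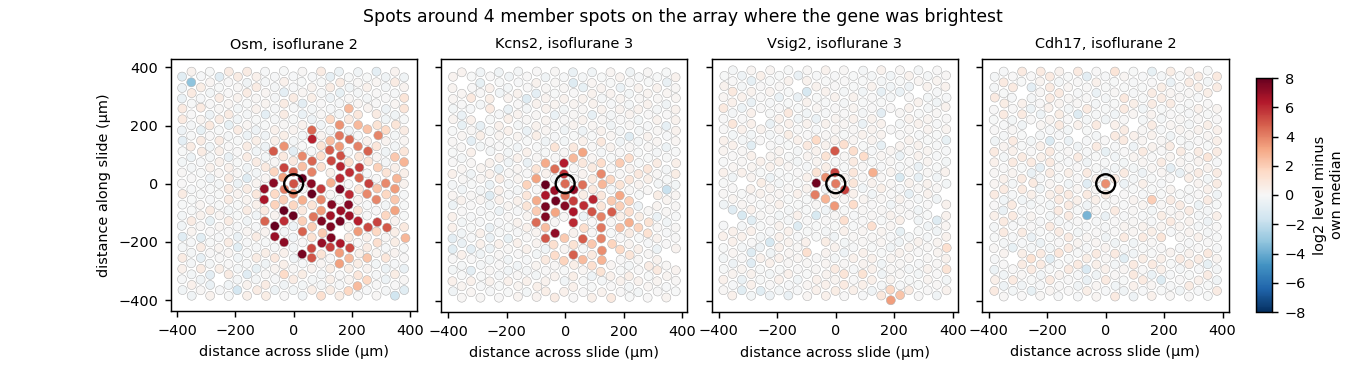
Spots within 400 µm of the marked member spot (circle; axes, distance in µm) on the array where that gene's leading probe was brightest, coloured by log2 level minus the spot's own median over the 6 arrays. Osm, Kcns2 and Vsig2 lie within groups of bright spots (10, 9 and 5 of the 12 nearest at least 4-fold up), whereas the Cdh17 spot on the array of isoflurane rat 2 is alone.

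Without the spot in the patch, the range fell from 5.51 to 0.59 for Osm, from 4.84 to 0.74 for Kcns2 and from 4.67 to 0.73 for Vsig2. That spot is the 1 high reading itself, so this fall was fixed in advance and says nothing about the patches. The group differences, with all spots, were 2.02 ± 1.39 for Osm, 1.28 ± 1.34 for Kcns2 and 1.50 ± 1.17 for Vsig2 (SE, n = 3 per group). Without those spots, which left 2 isoflurane rats for each gene, they were 0.35 ± 0.18, -0.31 ± 0.25 and 0.12 ± 0.25. The array of isoflurane rat 2 decided the Osm difference, and the array of isoflurane rat 3 the other 2. Bright patches covered 2.11% and 2.79% of spots on the arrays of isoflurane rats 2 and 3, against 0.20% to 0.72% on the other 4. Of 666 probes at least 16-fold above all other arrays on 1 array, 587, or 88.1%, were in a patch. Negative control spots, which match no transcript, were also at least 4-fold up in places, 9 of 308 on the array of isoflurane rat 2 and 5 of 308 on that of isoflurane rat 3, against 2 or 3 on the others. The part of the patches in the 3 high readings was not tested.

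The genes most like these 3 were in the same kind of place. For Osm they were Acrbp, Or51b6b and Pbsn (r of at least 0.99), for Kcns2 Zfp956, Slc41a3 and Or8b3 (r of at least 0.99) and for Vsig2 Pdgfd, Efnb1 and Mtus2 (r of at least 0.99). All 9 had their spot in a bright patch on the array where Osm, Kcns2 or Vsig2, respectively, was highest. Kcns2 and Vsig2 had a correlation of 0.99 with each other, which rests on the 1 shared high array. For the other 5 genes, 1 of the 15 most similar genes, Lcn10 for Cdh17, was in a patch on the array where the member was highest. Likeness to a profile with 1 high array picks genes high on that array alone, and most such readings lay in patches. Nothing is therefore read from these counts.

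Of 15 other genes of the oncostatin M and interleukin-6 pathway with a probe, 13 were on in all rats and 2, Osmr (the oncostatin M receptor) and Il6, in none, with 0 past the test. Lif, a related cytokine, varied by 1.18, and Socs3, a target of this signalling, lay between -2.73 and -2.23. No single direction held in isoflurane rat 2, where Socs3 and Il11 were highest and Lif, Lifr, Il6r and Stat3 lowest. A link of these levels to Osm was not tested. Neutrophil markers summed to 1.55 to 2.25 in CO2/O2 rats and 1.09 to 2.19 in isoflurane rats, and were at 1.32 in isoflurane rat 2, where Osm was high. Kupffer cell markers, all 10 on in all rats, summed to 204.7 to 251.1 and 164.6 to 195.2 in the same order of groups. Of 11 other Kv2-type channel subunits, 4 were on in all rats, 3 in some and 4 in none. Kcnv1, a further silent subunit, was on in isoflurane rat 3 only, at -4.04, the rat in which Kcns2 was high, with its spot also in a bright patch. Of 9 other V-set and related surface proteins, 5 were on in all rats, 3 in some and 1 in none, and 0 of either list passed the test.

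Whether other probes agreed was also compared with the genes at large. In the 5 genes with more than 1 probe, 6 other probes were available. On the array where the leading probe lay farthest from its own median, 3 of 4 others moved the same way by at least 2-fold where the leading spot was outside a patch, and 0 of 2 where it was inside. Of those 2, the Osm probe was off in all 6 rats, so it says little. Among the 324 genes with a range of at least 4 log2 units, 19 of 73 other probes (26.0%) did so outside patches and 3 of 175 (1.71%) inside. Other probes that were off in all rats were counted too. The members were chosen in these same data, so nothing is read from their counts. Of these 324 genes, 227 had a spot in a bright patch, and 100 genes ranged that widely with patch spots left out. A1bg, Akr1b7 and Kcns2 had 1 probe each, so this comparison could not be made for them.

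The position of a gene in the genome was a further comparison that the choice did not use. Of 48 genes, the nearest 3 with a probe on each side of each member, 40 were on in some rat, with a median range of 0.59 log2 units against 0.45 for all detected genes. Of these 40, 5 ranged by at least 2 units and 3 by at least 4, namely Acsm2, Akr1b8 and Pnliprp1, and the spot of Pnliprp1 lay in a bright patch. Neighbours of the other 6 genes, apart from Pnliprp1 beside Gfra1, did not reach a range of 4 units.

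No member gene passed the test of isoflurane against CO2/O2. After Benjamini-Hochberg adjustment over all probes in limma, 0 of 8 genes reached an adjusted p of 0.05, against 0 of 10609 genes (0%) and 3 of 34637 probes (0.00866%). At an unadjusted p under 0.05 there were 804 of 10609 genes and 1 of the 8, Akr1b7. Nothing is read from these member counts, since the genes were selected on these values. A1bg and Akr1b7 also passed the filter on dim probes through the CO2/O2 rats alone. The filter on dim probes passed 12 of the 14 member probes. The groups overlapped for 6 of the 8 genes, all but Osm and Akr1b7, and did not overlap for 14.1% of detected genes. With slide row as a block, which rests on isoflurane rat 1 against the CO2/O2 rats of the same row, the difference was -3.82 ± 2.36 for Akr1b7, -0.38 ± 1.60 for A1bg and -4.45 ± 1.80 for the leading Acsm5 probe (SE). In that fit Cdh17 stood at 2.89, Osm at 0.28, Kcns2 at -0.26 and Vsig2 at 0.17.

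By rat, the variation fell into separate patterns. Isoflurane rats 1 and 2 were low in Acsm5 by 2 of its 3 probes, the other staying flat. CO2/O2 rat 1 was high and isoflurane rat 3 low in A1bg and Akr1b7. CO2/O2 rat 2 was low in Cdh17 and Gfra1, isoflurane rat 2 was high in Cdh17 and isoflurane rat 3 in Gfra1. Acsm5 and Cdh17 ran opposite each other (r = -0.87 over 6 arrays), as did Gfra1 and Akr1b7 (r = -0.81), and of the 28 pairs of genes only Kcns2 with Vsig2 and A1bg with Akr1b7 had a correlation above 0.8. Each rat was measured once, so differences between rats and between hybridisations of their RNA cannot be told apart.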

How the data were processed

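Liver RNA of 6 rats was hybridised to 1-colour arrays, 1 rat per array, all on 1 slide in 1 scan. Per the labels' protocols, 0.2 ug of RNA was amplified and labelled with Cy3, and Agilent Feature Extraction 10.7 quantified the scans, per the submitters' processing notes. The deposited spot values are linear intensity values, background-corrected per the file headers and not scaled between arrays. A second deposited table gives a linear ratio per array, found here to be the processed intensity over 1 divisor close to that array's 75th percentile, with no centring. Its column medians were 0.0864, 0.0881 and 0.0868 for CO2/O2 rats 1 to 3 and 0.0917, 0.0900 and 0.0904 for isoflurane rats 1 to 3. Why the authors used that divisor is not stated.

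Here each array's 75th percentile was subtracted on the log2 scale, 177 outlier-marked spots were left out, and probes that were on in all 3 rats of 1 group or of both were tested with limma 3.58.1 in R 4.3.3 (threshold, adjusted p 0.05). Differences and SEs of members came from the same model over all probes. The number of arrays limits the precision. The p-values rest on the spread between single arrays within a group, in which differences between rats and between hybridisations are joined. Probes were named through RefSeq (GRCr8, names and gene order): 27460 matched 1 gene, 0 several, 34197 none. Of simulated 2-fold and 4-fold changes between isoflurane and CO2/O2, over 34570 probes, 60% and 88.6% were recovered, with 4% false among calls. Noise was drawn independently for each probe at its own spread, so bright patches were not simulated. The changed probes were picked at random, so these rates do not apply to the members, whose spread between rats was wide. Files were read with Python 3.11.15, pandas 2.3.3 and numpy 2.4.6.

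Named genes were the 8 members, the 3 genes most correlated with each, 3 genome neighbours per side, and in each family list those on in some rats only or with the widest range; list genes named beyond this (among them Gdnf, Cyp2c11, Socs3, Akr1b1 and Acsm1), and the bright patch rule, were chosen after values were seen. The members and lists were chosen with earlier results of these data known. The alternatives were other background corrections, scalings, filters, on rules, blocks and the omission of each array.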

Additional observations from a re-analysis of the deposited data

How the results depend on the processing

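The count of 3 probes past the threshold became 5 with normexp background correction, 5 with a robust eBayes trend, 1 when dim probes were kept, 0 with the replicate block, and 2616 at an unadjusted p under 0.05. Rats of the same replicate number did not deviate together (correlations 0.0994, -0.0197 and 0.0604), so the numbers pair no rats. Leaving out 1 array in turn gave 1 to 20 probes: 1 without CO2/O2 rat 1, 20 without CO2/O2 rat 3, 17 without isoflurane rat 1, 5 without isoflurane rat 2 and 1 without isoflurane rat 3. No member gene passed under any of these, apart from 1 at the unadjusted p. The count of 2 genes on in some rats and off in others became 1 with the scanner's less strict flag (signal positive and significant), 4 with the 99th percentile of negative controls as the limit, 1 where on and off rats had to lie 4-fold apart and 5 where any probe counted. Leaving out 1 array gave 1 to 2, with 1 without isoflurane rat 3. The count of 7 genes with a 4-fold gap between neighbouring rats, added after the data were seen like its alternatives, became 4 without spots in bright patches and 4 where all probes of a gene had to show it, and was 5 to 8 with 1 array left out. Leaving out patch spots removes the 1 high reading of Osm, Kcns2 and Vsig2, so that fall was fixed in advance. Of 364 alternative values of member differences and ranges, 340 moved by less than the spread between rats and 24 by more. For Osm, Kcns2 and Vsig2 that spread includes the 1 high reading. Their differences without patch spots, 0.35, -0.31 and 0.12, therefore count among the 340, which is no measure of stability. The Kcns2 difference changed sign with slide row as a block, at -0.26, and without isoflurane rat 3, at -0.31. A block for slide or scan date was not run, since there was 1 of each. Signal near background limits Akr1b7, A1bg and the dimmer Cdh17 and Gfra1 probes: with normexp the range of Akr1b7 was 7.15. It also limits the leading Osm, Kcns2 and Vsig2 probes outside their 1 high spot each. In isoflurane rat 2, Kcns2 at -3.77 and Vsig2 at -3.50 lay below the 99th percentile of negative controls, -1.80. On that array 9 of 308 controls were at least 4-fold up, 7 of them in bright patches. The limit there thus follows bright controls, and both readings lay above the control median of -6.23. The count of 4 genes given above uses this limit too. Osm in isoflurane rat 3, at -3.33, lay just above the limit of that array, -3.38.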

Other observations

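Of the genes on in some rats and off in others, Fam111a, a protease linked to antiviral defence and DNA replication, had the widest range after Akr1b7, and all its probes agreed. Its leading probe lay at 0.33, -7.26 and 1.13 in CO2/O2 rats and at 1.86, 1.42 and -6.58 in isoflurane rats. It was on in 4 rats and off in CO2/O2 rat 2 and isoflurane rat 3. Its other 2 probes lay at -6.01 and -7.11 in CO2/O2 rat 2 and at -6.42 and -5.65 in isoflurane rat 3, and at -0.61 or above in the other 4 rats. No spot of the leading probe lay in a bright patch. The next 8 genes by range (Snap25, Sp6, Or6c202, Trim63, Lix1, Slc6a5, Or51ab3 and Defb49) were each on in 1 rat, with the spot in a bright patch there.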
